A study of Mus musculus with 14 samples.

Results

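Effector regulatory T cells (eTregs) were compared with central regulatory T cells (cTregs) on the 6 arrays whose donors were labelled Atg14 KO, 3 of eTregs and 3 of cTregs, out of 14 arrays in all. The members were taken by their labels, and no measured value was used to choose them. Regulatory T cells (Tregs) are the CD4 T cells in which Foxp3 is active, and they restrain other immune cells. The donors of the KO group were Foxp3Cre Atg14fl/fl mice, in which a Cre recombinase driven by the Foxp3 promoter deletes loxP-flanked Atg14 in Tregs, and both alleles were flanked. In the control group (Foxp3Cre Atg14+/fl, labelled Atg14 heterozygous, 4 arrays of cTregs and 4 of eTregs) a single allele was flanked, so that both groups carried the Cre. All cells came from mixed bone marrow chimeras: CD45.2+ donor marrow was combined 1:1 with CD45.1+ wild-type marrow and given to sublethally irradiated Rag1-/- mice, which have no T or B cells of their own, and 6 to 8 weeks were left for reconstitution. These hosts keep myeloid cells of their own. According to the methods, CD45.2+ CD4+ Foxp3-YFP+ cells were sorted as CD44low cTregs or CD44high eTregs, with a further surface protein in the gate. The series text gives spleen and pLN as the tissue whereas the methods give the spleen, and the study names 3 KO and 4 control chimeras as the mice behind these arrays. The ages of the hosts, and which cTreg and eTreg arrays come from the same mouse, are not given in the sources used here.

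As background, cTregs recirculate through lymphoid organs with homing receptors such as CCR7 and depend on quiescence factors such as Klf2, Tcf7 and Lef1. After stimulation through the T cell receptor they can become eTregs, which carry CD44, co-inhibitory and costimulatory receptors, receptors for inflammatory chemokines and for the alarmin IL-33, and mediators such as Il10 and Areg. The Atg14 protein directs the lipid kinase Vps34 to the sites where autophagosomes form.

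The transcript of Atg14 was at 9.24, 9.33 and 9.29 (log2 signal) on KO cTreg 1 to 3 and at 9.15, 9.004 and 9.32 on KO eTreg 1 to 3. Because this is not below the control means, 8.94 in cTregs and 8.84 in eTregs, the signal does not check the label, and the arrays are called "labelled KO" or, in array names, KO. Whether the probes read the deleted exons was not tested. Apart from these arrays, the study reports that it verified the loss of Atg14 by quantitative PCR in Tregs sorted from Foxp3Cre Atg14fl/fl mice. Cd44, whose protein was part of the gate, was at 9.14, 9.86 and 9.21 in cTregs and 10.60, 11.52 and 11.49 in eTregs, which is 3.48-fold higher (log2 fold change 1.80 ± 0.22 (SE), adjusted P = 3.60e-04). The gate also read Foxp3, through its YFP reporter, and the CD4 protein, whereas CD3 is not named in it. Foxp3, Cd4 and Cd3e lay between 12.73 and 13.12, 12.46 and 12.75, and 13.05 and 13.21 on the 6 arrays. Their differences of 0.02, 0.15 and 0.04 did not pass. The 14 arrays had medians of 8.77 to 8.90, background control medians of 6.00 to 6.30 and correlations with each other of 0.962 to 0.994. On the first principal component (34.5% of the variance) KO eTreg 1 lay at -4.30, between the 3 KO cTreg arrays (-26.6 to -12.8) and KO eTreg 2 and 3 (39.9 and 39.5). The control eTregs lay at 5.26 to 21.9, so that KO eTreg 1 was below, and KO eTreg 2 and 3 above, each of them. The values below are therefore log2 signals on each array, those of KO cTreg 1 to 3 against those of KO eTreg 1 to 3, in this order. A number in parentheses directly after a gene, or before an adjusted P, is its log2 fold change of eTregs over cTregs, and counts are also given for fits that omit single arrays.

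For the genes called below, the 250 bases before their transcription start in RefSeq (build GRCm38.p6) were searched on both strands for 5 short motifs. These were TGANTCA for AP-1, TGTTTAC for forkhead factors, CTTTGAT for TCF/LEF, GAGGAAGT for PU.1 and, for NF-kB, GGGA and TTTCC with any base between them. Of 448 symbols called higher in KO eTregs (the threshold is given below), 332 were matched, with 439 windows, and of 73 called lower 48 were matched, with 64 windows. The AP-1 letters stood in 8.66% of the windows of higher genes, 7.81% of those of lower genes and 6.75% of all 32851 windows. For PU.1 these shares were 5.92%, 4.69% and 2.44%, for forkhead 2.96%, 3.12% and 3.17%, for TCF/LEF 2.51%, 1.56% and 3.21%, and for NF-kB 1.59%, 0 and 0.356%. The 5 windows below belong to 2 receptor genes, a cytoskeletal gene and a complement gene that rose, and to a cTreg gene that fell. They were chosen because they hold one of the motifs, which is in capitals, none holds a match to another of them, and each reads 5′ to 3′ on the strand of the gene.
Ccr4 (chr9:114496545-114496794, strand minus, AP-1): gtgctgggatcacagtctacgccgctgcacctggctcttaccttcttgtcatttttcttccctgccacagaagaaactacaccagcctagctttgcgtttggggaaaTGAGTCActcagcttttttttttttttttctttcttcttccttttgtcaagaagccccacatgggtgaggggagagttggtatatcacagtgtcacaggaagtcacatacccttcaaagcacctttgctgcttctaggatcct
Il1rl1 (chr1:40439379-40439628, strand +, forkhead): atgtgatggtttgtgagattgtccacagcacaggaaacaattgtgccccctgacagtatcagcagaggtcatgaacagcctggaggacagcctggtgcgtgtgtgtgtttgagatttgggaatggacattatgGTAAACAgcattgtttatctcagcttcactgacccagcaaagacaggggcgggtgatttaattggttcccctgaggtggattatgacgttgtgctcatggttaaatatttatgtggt
Crmp1 (chr5:37245514-37245763, strand +, PU.1): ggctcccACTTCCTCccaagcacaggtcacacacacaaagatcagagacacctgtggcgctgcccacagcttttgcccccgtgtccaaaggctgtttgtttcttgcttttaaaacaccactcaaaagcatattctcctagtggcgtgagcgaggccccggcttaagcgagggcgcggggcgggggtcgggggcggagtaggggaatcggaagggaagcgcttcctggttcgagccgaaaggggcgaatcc
C1qc (chr4:136892915-136893164, strand minus, PU.1): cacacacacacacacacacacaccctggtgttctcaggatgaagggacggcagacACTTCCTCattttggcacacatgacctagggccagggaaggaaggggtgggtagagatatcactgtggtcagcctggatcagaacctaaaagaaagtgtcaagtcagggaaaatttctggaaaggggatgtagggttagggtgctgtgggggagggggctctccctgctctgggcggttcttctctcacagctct
Dapl1 (chr2:59484403-59484652, strand +, forkhead): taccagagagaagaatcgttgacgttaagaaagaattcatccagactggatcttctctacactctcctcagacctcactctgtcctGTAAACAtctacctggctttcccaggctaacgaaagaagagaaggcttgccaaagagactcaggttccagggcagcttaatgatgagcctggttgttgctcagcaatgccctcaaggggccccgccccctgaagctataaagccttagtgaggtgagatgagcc
The motifs begin 143 bases before the start of Ccr4, 117 before that of Il1rl1, 243 before that of Crmp1, 195 before that of C1qc and 164 before that of Dapl1. A match describes these letters and says nothing of a factor bound there.

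Of 22203 transcript clusters (the probes that read 1 gene), 522 (2.35%) differed between eTregs and cTregs labelled KO at an absolute log2 fold change of at least 0.5 with an adjusted P below 0.05. Of these, 449 (2.02%) were higher and 73 (0.329%) lower in eTregs. With an unadjusted P in place of the adjusted one (the methods name both), 1289 passed (5.81%), 1032 of them higher (4.65%) and 257 lower (1.16%). The median change over all clusters was -0.04, over the clusters called higher 1.16 and over those called lower -0.72. A rise of at least 2 on the log2 scale was seen for 62 clusters and a fall of at least 1 for 11. The eTreg and cTreg arrays did not overlap for 505 of the 522, against 3098 (14%) of all clusters. The count fell to 133 when the 6 arrays were fitted without the controls, and it depended on single arrays: omitting KO cTreg 1 gave 309 calls, KO cTreg 3 gave 295, KO eTreg 1 gave 1236, KO eTreg 2 gave 257 and KO eTreg 3 gave 219. The 17 called with overlap were all higher, and on each of them KO eTreg 1 was the eTreg array within the range of the cTregs.

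Ccr2, a receptor for monocyte chemoattractant proteins, was at 5.78, 5.91 and 6.10 on KO cTreg 1 to 3 and at 8.59, 10.04 and 9.80 on KO eTreg 1 to 3. The cTreg values lay below the highest background median of 6.30, so its log2 fold change of 3.55 ± 0.34 (SE, adjusted P = 4.01e-05) is not an exact size. Gpm6b, a membrane glycoprotein of the proteolipid family, was at 8.28, 8.63 and 8.28 in cTregs and 11.11, 12.22 and 11.79 in eTregs, 9.89-fold higher (3.31 ± 0.32, adjusted P = 4.01e-05). For both genes every eTreg array stood far above every cTreg array, KO eTreg 1 being the lowest of the 3. Mrc1, the mannose receptor of macrophages, was at 6.39, 6.58 and 6.13 in cTregs and at 7.29, 11.29 and 10.64 in eTregs. Its rise of 3.38 ± 0.67 (adjusted P = 0.0125) rested on KO eTreg 2 and 3, while KO eTreg 1 was less than 1 log2 unit above the highest cTreg array. The cTreg values of Mrc1 lay near the highest background median of 6.30, so this size is not exact either.

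**Figure D1:**
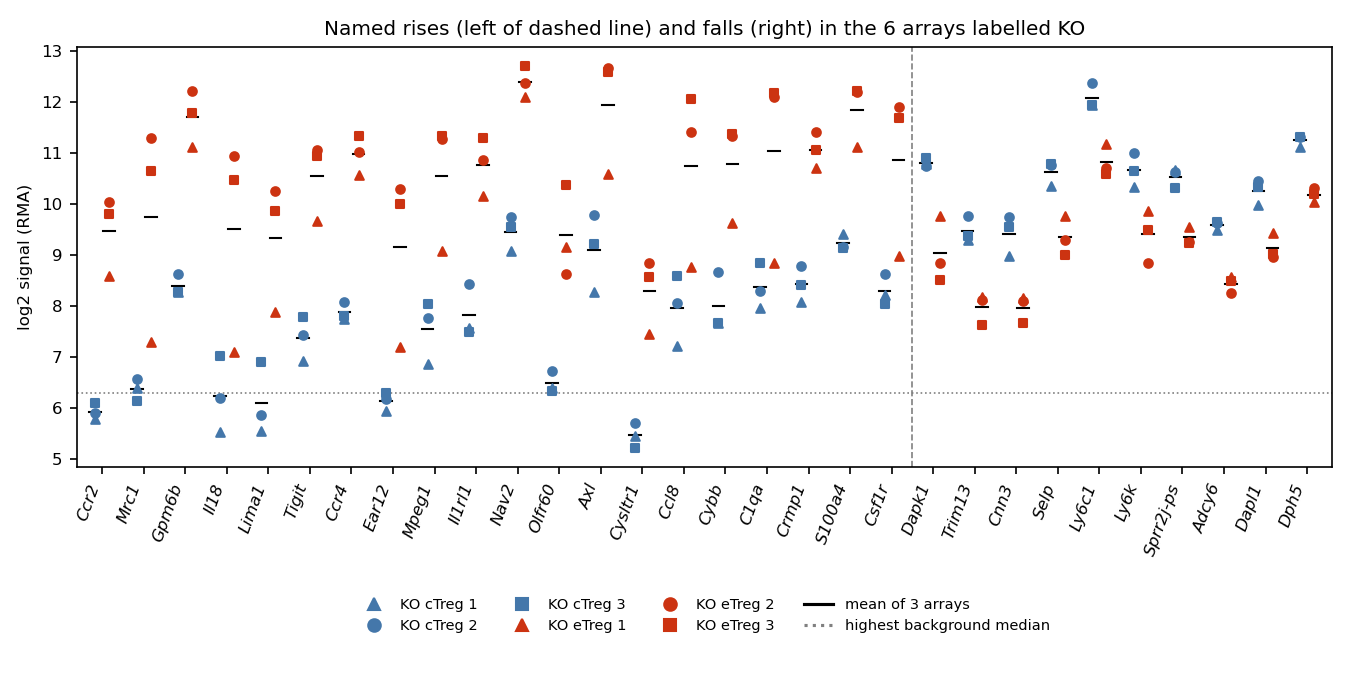
Log2 signal (vertical axis) of the 20 rises and 10 falls named by rule (horizontal axis) on the 3 cTreg (blue) and 3 eTreg (red) arrays labelled KO. Triangles mark replicate 1, circles 2 and squares 3, black bars the group means and the dotted line the highest background median of 6.30; KO eTreg 1 reads 7.29 for Mrc1 against 11.29 and 10.64 on KO eTreg 2 and 3, but 12.09 for Nav2 against 12.36 and 12.70.

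Other large rises were shared by all 3 eTreg arrays. Tigit, a co-inhibitory receptor, was at 6.91, 7.42 and 7.78 in cTregs and 9.67, 11.05 and 10.94 in eTregs (3.18, adjusted P = 4.01e-05). Ccr4, the receptor for Ccl17 and Ccl22, was at 7.74, 8.09 and 7.81 against 10.57, 11.02 and 11.33 (3.10, adjusted P = 1.17e-05). Nav2, a neuron navigator protein that binds the cytoskeleton, was at 9.08, 9.74 and 9.54 against 12.09, 12.36 and 12.70 (2.93, adjusted P = 8.32e-06). In these genes the lowest eTreg array exceeded the highest cTreg array by more than the whole range of the cTreg arrays. Il1rl1, which encodes the IL-33 receptor ST2, was at 7.56, 8.43 and 7.48 against 10.15, 10.85 and 11.29 (2.94, adjusted P = 8.65e-05). Crmp1, a collapsin response mediator, was at 8.08, 8.78 and 8.42 against 10.71, 11.41 and 11.06 (2.64, adjusted P = 1.78e-05). S100a4, a calcium-binding protein of motile cells, was at 9.41, 9.16 and 9.14 against 11.12, 12.18 and 12.20 (2.60, adjusted P = 1.47e-05). Here too no eTreg array reached the range of the cTregs. Olfr60, an olfactory receptor gene, was at 6.39, 6.73 and 6.34 against 9.16, 8.64 and 10.37 (2.91, adjusted P = 6.34e-04), and here KO eTreg 2 was the lowest. The cTreg values of Olfr60 lay near background, so its rise is not an exact size. Cysltr1, a receptor for cysteinyl leukotrienes, rose from background values of 5.46, 5.71 and 5.22 to 7.46, 8.84 and 8.58.

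In a second set of large rises KO eTreg 1 lay well below KO eTreg 2 and 3, and for some genes close to the cTregs. C1qa, a chain of complement C1q, was at 7.95, 8.30 and 8.84 in cTregs and 8.84, 12.10 and 12.18 in eTregs (2.68, adjusted P = 0.0252), so that KO eTreg 1 was level with the highest cTreg array. Csf1r, the receptor for macrophage colony-stimulating factor, was at 8.22, 8.62 and 8.04 against 8.99, 11.90 and 11.69 (2.57, adjusted P = 0.0123). Ccl8, a chemokine made by macrophages, was at 7.22, 8.06 and 8.59 against 8.76, 11.40 and 12.06 (2.78, adjusted P = 0.0209). All 3 of these, with Mrc1 and the cytokine gene Il18 (5.53, 6.19 and 7.02 against 7.09, 10.94 and 10.47, adjusted P = 0.0160), were no longer called when KO cTreg 1 or one of KO eTreg 2 and 3 was omitted, and omitting KO cTreg 2 or KO cTreg 3 also removed 3 of these 5 calls. Mpeg1, a pore-forming protein of phagocytes, was at 6.86, 7.77 and 8.03 against 9.08, 11.26 and 11.33 (3.003, adjusted P = 0.00142). Axl, a receptor tyrosine kinase that binds Gas6, was at 8.28, 9.79 and 9.22 against 10.58, 12.66 and 12.59, Cybb, the catalytic subunit of the phagocyte NADPH oxidase, at 7.67, 8.67 and 7.67 against 9.62, 11.34 and 11.37, and both rose (2.85 and 2.77). Lima1, an actin-binding protein, and Ear12, a ribonuclease of the eosinophil-associated family, rose from background means in cTregs to 7.88, 10.26 and 9.87 and 7.20, 10.29 and 9.99. In controls Mpeg1, Axl and Cybb were called higher too (1.94, 2.87 and 3.39), whereas Lima1 and Ear12 were not called. Each of the 5 genes Mpeg1, Axl, Cybb, Lima1 and Ear12 was also higher on KO eTreg 1 than on any cTreg array, and lower there than on KO eTreg 2 and 3. The mean over 30 clusters of monocytes and macrophages, described below, moved alike (8.24 to 8.36 in cTregs and 8.55, 10.32 and 10.33 in eTregs), and the part of such cells in these rises was not tested.

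Falls were smaller. Dapk1, a death-associated protein kinase, was at 10.77, 10.74 and 10.90 on KO cTreg 1 to 3 and at 9.77, 8.84 and 8.51 on KO eTreg 1 to 3, a fall of 1.77 ± 0.32 (SE) on the log2 scale (adjusted P = 0.00669). Trim13, a ubiquitin ligase, was at 9.29, 9.77 and 9.37 against 8.18, 8.12 and 7.63 (-1.50, adjusted P = 0.00328). Every eTreg array lay below every cTreg array in both genes, and for Dapk1 KO eTreg 1 was the closest to the cTregs. Cnn3, an actin-binding calponin, was at 8.98, 9.74 and 9.54 against 8.15, 8.10 and 7.66 (-1.45, adjusted P = 0.0146), and its adjusted P was 0.0690 when KO cTreg 2 was omitted, 0.0628 for KO cTreg 3 and 0.0859 for KO eTreg 3. On the full set of arrays its subsets did not overlap. Selp, which encodes P-selectin, was at 10.35, 10.76 and 10.78 against 9.77, 9.30 and 8.99 (-1.28, adjusted P = 0.00669). Adcy6, an adenylate cyclase, was at 9.48, 9.62 and 9.65 against 8.57, 8.25 and 8.50 (-1.14, adjusted P = 8.53e-04). Dph5, an enzyme of diphthamide synthesis, was at 11.12, 11.30 and 11.30 against 10.04, 10.31 and 10.19 (-1.06, adjusted P = 0.00125). In these 3 genes the arrays of each subset lay within 1 log2 unit of each other. Ly6k (10.33, 11.002 and 10.64 against 9.87, 8.84 and 9.50) and the pseudogene Sprr2j-ps (10.67, 10.62 and 10.31 against 9.54, 9.25 and 9.24) also fell, by 1.26 and 1.19. The call of Ly6k was lost on omitting KO cTreg 2 or 3 or KO eTreg 2, and that of Sprr2j-ps on omitting KO cTreg 1 or 2 or KO eTreg 2 or 3. In controls Sprr2j-ps differed by 0.53 in the other direction, without passing (adjusted P = 0.272).

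In addition, 24 lists of genes with known roles were counted, against 2.02% of all clusters higher and 0.329% lower. The lists were chosen with earlier results of these data known and hold some genes named above, such as Ccr2, Tigit and Gpm6b. Their counts are therefore a description. Transcription factors of effector Tregs were called higher for 10 of 20 clusters and lower for 0, with a median change of 0.96, and leaving out 1 KO array gave 8 to 14. Rora, a nuclear receptor of effector and tissue T cells, was at 8.63, 9.10 and 9.09 in cTregs and 10.98, 11.24 and 11.52 in eTregs on its leading cluster (2.31, adjusted P = 6.35e-06). A second cluster of Rora rose by 1.77, and the change of the other one, near background, was -0.24 and did not pass. Prdm1, which encodes Blimp-1, was at 6.68, 7.99 and 7.62 against 8.58, 9.62 and 10.48 (2.13, adjusted P = 0.0106), with each eTreg array above each cTreg array and the eTregs spread over almost 2 log2 units. Tbx21 (1.41), Nfil3 (1.31), Bhlhe40 (1.24), Maf (1.15), Id2 (1.05) and Runx2 (0.69) rose too. Tbx21, which encodes T-bet, read 7.75, 8.18 and 7.85 against 8.90, 9.43 and 9.67, and Maf, a driver of Il10, read 9.38, 8.97 and 9.23 against 10.06, 10.58 and 10.40. Irf4 (9.22, 9.65 and 9.74 in cTregs, 9.81, 10.51 and 10.57 in eTregs, adjusted P = 0.0660), Batf (11.24, 11.45 and 11.29 against 11.60, 11.99 and 11.94, adjusted P = 0.05003) and Pparg (6.75, 6.72 and 6.81 against 7.14, 8.16 and 7.95, adjusted P = 0.0602) did not overlap between the subsets but missed the threshold. Gata3 differed by -0.02 and Tox by 0.06, and neither passed.

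Genes of central T cells and quiescence went the other way, with 9 of 22 clusters called lower, 0 higher and a median of -0.46. Ly6c1, a surface antigen of central T cells with a close paralog whose transcripts may share probes, was at 11.94, 12.36 and 11.94 in cTregs and 11.17, 10.71 and 10.59 in eTregs (-1.26, adjusted P = 0.00264). Dapl1 was at 9.97, 10.46 and 10.33 against 9.43, 8.97 and 9.03 (-1.11, adjusted P = 0.00197). S1pr1, the sphingosine 1-phosphate receptor that lets T cells leave lymphoid organs, was at 12.57, 12.95 and 12.74 against 12.26, 11.99 and 11.68 (-0.78, adjusted P = 0.00807), and Klf2, which drives its transcription, at 10.78, 10.97 and 10.63 against 10.25, 9.93 and 9.94 (-0.75, adjusted P = 0.00840). In all 4 genes each eTreg array lay below each cTreg array. Satb1, a chromatin organiser (-0.75), Lef1, a partner of β-catenin (-0.62), Igfbp4 (-0.85), Ms4a4c (-0.75) and Bcl2 (-0.60) also fell. Bach2 (11.57, 11.46 and 11.85 in cTregs, 11.42, 11.24 and 10.78 in eTregs, adjusted P = 0.112), Tcf7 (-0.24, adjusted P = 0.367), Foxo1 (-0.25, adjusted P = 0.297), Ccr7 (-0.30, adjusted P = 0.234) and Il7r (0.11, adjusted P = 0.828) did not pass. Omitting KO eTreg 1 raised the number lower to 13, whereas 5 were left on omitting KO cTreg 2 or 3 or KO eTreg 2, and 2 on omitting KO eTreg 3.

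Among 18 clusters of receptors for chemokines and egress signals 7 were called higher and 1 lower (S1pr1), with a median of 0.57. Besides Ccr2 and Ccr4 these were Ccr6, the receptor for Ccl20 (9.58, 9.97 and 9.45 in cTregs, 11.48, 12.20 and 11.94 in eTregs, 2.20, adjusted P = 0.00272), and Ccr8, a receptor of skin and tumour Tregs (8.46, 9.13 and 8.80 against 10.01, 10.79 and 11.38, 1.93, adjusted P = 9.30e-04). Cxcr5, the receptor for the follicle chemokine Cxcl13, was at 8.67, 9.66 and 9.20 against 10.52, 11.44 and 11.13 (1.85, adjusted P = 0.00977), and Cxcr3, the receptor for interferon-induced chemokines, at 9.86, 9.79 and 9.92 against 10.40, 10.61 and 10.83 (0.76, adjusted P = 0.00348). These 4 rose on all 3 eTreg arrays. Ccr3, the eotaxin receptor of granulocytes, was at 6.19, 5.94 and 5.64 in cTregs, near background, and at 6.40, 9.68 and 8.76 in eTregs (adjusted P = 0.0282), so that KO eTreg 1 stayed near background too. Leaving out 1 KO array gave 5 to 9 higher, and S1pr1 was not called when KO eTreg 3 was omitted.

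Co-inhibitory receptors were called higher for 4 of 12 clusters (median 0.78), with 7 on omitting KO eTreg 1 and 3 to 5 on omitting another KO array. Besides Tigit these were Pdcd1, which encodes PD-1 (9.27, 9.55 and 8.86 in cTregs, 10.65, 11.26 and 10.95 in eTregs, 1.72, adjusted P = 8.43e-05), Havcr2, which encodes TIM-3 (6.11, 6.54 and 6.40 against 7.58, 8.13 and 7.44, 1.37, adjusted P = 0.00405), and Lag3 (9.03, 9.001 and 8.88 against 9.47, 10.32 and 10.26, 1.05, adjusted P = 0.00783). None of the 3 overlapped between subsets, and Havcr2 was near background in cTregs. Ctla4 was at 11.93, 11.78 and 12.41 against 12.36, 12.67 and 12.64, overlapped, and did not pass (adjusted P = 0.0903), and Klrg1, a marker of terminal effector cells, was at 7.96, 7.32 and 7.33 against 8.26, 9.16 and 8.31 and did not pass either (adjusted P = 0.134). Of 12 costimulatory and TNF receptor family clusters 2 were called higher (median 0.32), with 4 on omitting KO eTreg 1, 1 on omitting KO cTreg 1 or 3 or KO eTreg 3, and 2 to 3 on omitting the others. Icos, which sustains effector Tregs, was at 10.77, 10.92 and 10.81 against 11.45, 12.28 and 12.59 (1.27, adjusted P = 0.00752), and Cd80 at 8.39, 9.39 and 8.93 against 9.85, 9.84 and 10.66 (1.22, adjusted P = 0.0193). Tnfrsf4, Tnfrsf18 and Cd27 differed by 0.17, -0.05 and 0.04 and did not pass.

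Of 24 cytokine receptor clusters 5 were called higher and 0 lower (median 0.12), and 4 to 7 when 1 KO array was left out. Besides Il1rl1, the 4 others also belong to the receptor families of IL-1, IL-18 and IL-17. Il1r2, the decoy receptor for IL-1, was at 8.52, 8.08 and 8.46 in cTregs and 10.04, 10.99 and 11.33 in eTregs (2.43, adjusted P = 8.72e-04). Il18r1, the ligand-binding chain for IL-18, was at 9.47, 9.85 and 10.04 against 10.87, 11.20 and 11.57 (1.43, adjusted P = 3.60e-04), and its partner Il18rap at 8.32, 8.09 and 8.14 against 9.89, 9.38 and 9.10 (1.27, adjusted P = 5.40e-04). KO eTreg 1 was the highest eTreg array for Il18rap, and the lowest for Il18r1. Il17rb, a receptor for IL-25, was at 7.90, 8.44 and 8.55 against 8.97, 9.26 and 9.36 (0.90, adjusted P = 0.0100). Il2rb (0.12), Il2rg (-0.01), Il10rb (0.07) and Il6st (-0.02), chains shared by several cytokine receptors or carrying IL-2 signals, did not pass.

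Suppressive and tissue-repair mediators were called higher for 8 of 16 clusters (median 0.92). Gzmb, a cytotoxic protease, was at 8.13, 7.89 and 7.77 in cTregs and 9.26, 11.04 and 10.94 in eTregs (2.48, adjusted P = 0.00287). Penk, which encodes the enkephalin precursor, was at 9.12, 8.96 and 8.50 against 10.51, 11.06 and 11.08 (2.02, adjusted P = 1.61e-04), and the suppressive cytokine Il10 at 7.40, 6.93 and 7.44 against 7.93, 8.68 and 9.69 (1.51, adjusted P = 0.0293). For the 3 genes all eTreg arrays exceeded all cTreg arrays, and KO eTreg 1 was the lowest. Areg, the epidermal growth factor family member amphiregulin, was at 9.73, 9.71 and 9.48 against 10.14, 11.01 and 10.67 (0.97, adjusted P = 0.0464). Itgb8, which activates latent TGF-β (0.94), Nt5e, the ectoenzyme CD73 (0.86), Lgals1 (0.89) and Lgals3 (1.08) rose as well. Perforin (Prf1) was at 9.50, 9.77 and 9.16 against 9.29, 8.49 and 8.36 and did not pass (adjusted P = 0.0863), and Tgfb1 differed by 0.15. Omitting KO eTreg 1 gave 11 of these calls, KO cTreg 2 or KO eTreg 2 gave 5, KO cTreg 1 or 3 gave 4 and KO eTreg 3 gave 3.

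Of 19 adhesion and homing clusters 7 were called higher and 1, Selp, lower (median 0.28), with 6 to 8 higher when 1 KO array was left out. Besides Gpm6b, Lima1 and Cd44 these were the integrin chains Itgb1 (9.94, 10.45 and 10.31 in cTregs, 11.65, 12.35 and 12.29 in eTregs, 1.86, adjusted P = 2.53e-05), Itga2 (1.28, adjusted P = 0.00780) and Itgae (1.21, adjusted P = 0.0352), and Alcam, a ligand of CD6 (9.99, 9.89 and 9.61 against 11.03, 11.01 and 11.19, 1.24, adjusted P = 9.66e-05). On the Alcam cluster KO eTreg 1 was level with KO eTreg 2.

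**Figure D2:**
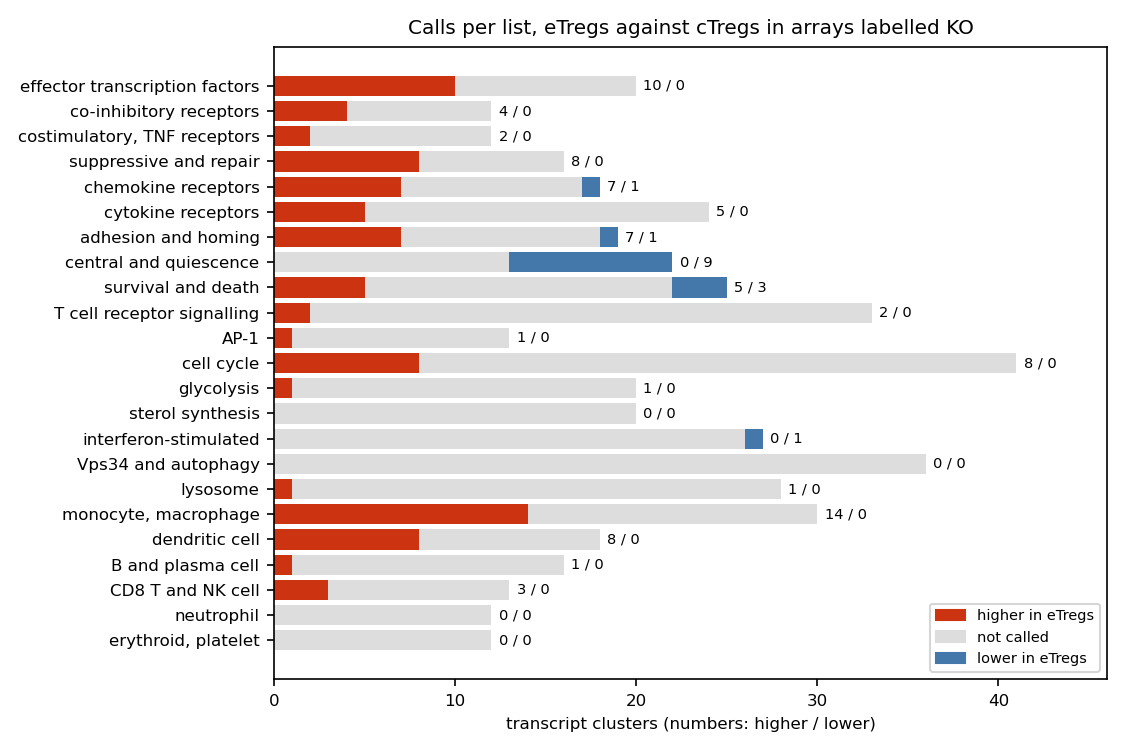
Number of transcript clusters (horizontal axis) of each gene list (vertical axis) that were higher (red), lower (blue) or not called (grey) in eTregs against cTregs labelled KO. The counts higher and lower stand beside each bar; the monocyte and macrophage list has the most clusters called higher (14 of 30) and the list of central and quiescence genes the most called lower (9 of 22).

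Survival genes moved both ways, with 5 of 25 clusters called higher and 3 lower (median 0.06). The inflammatory caspases Casp1 (10.14, 10.58 and 10.87 in cTregs, 11.32, 12.08 and 11.87 in eTregs, adjusted P = 0.00253) and Casp4 (1.09, adjusted P = 0.00440) rose. The anti-apoptotic Bcl2a1b (0.77) and Bcl2a1d (0.98), near-identical paralogs whose signals may be shared, rose too. Bcl2l11, which encodes the pro-apoptotic BIM, was at 9.50, 9.66 and 9.83 against 8.92, 8.76 and 8.44 (-0.95, adjusted P = 0.00197), below the cTregs on every eTreg array. The anti-apoptotic Bcl2 was at 12.79, 12.84 and 12.92 against 12.65, 12.22 and 11.89 (adjusted P = 0.0437), Dapk1 was the other cluster called lower, and Mcl1 differed by -0.24 and did not pass. The number higher was 7 on omitting KO eTreg 1, 4 on omitting KO cTreg 2 and 3 on omitting any other KO array, and the number lower 2 to 3.

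Of 41 cell cycle clusters 8 were called higher and 0 lower, 36 were positive and the median was 0.52. Mki67, the proliferation marker Ki-67, was at 8.12, 9.13 and 8.92 in cTregs and 10.46, 11.36 and 11.23 in eTregs (2.29, adjusted P = 3.87e-04), and Cdkn1a, the cell cycle inhibitor p21, at 8.94, 8.80 and 8.47 against 9.33, 10.58 and 10.52 (1.40, adjusted P = 0.00709). Top2a (0.99), Ccne2 (1.06), Plk1 (0.83), Kif11 (0.82), Tyms (0.63) and Mcm3 (0.61) rose too. Mki67 was high on all 3 eTreg arrays, whereas the mean of the list over the cTregs was 0.16 for KO eTreg 1, 0.84 for KO eTreg 2 and 0.55 for KO eTreg 3, beside 0.26, 2.02 and 2.04 for the macrophage list, whose part in this was not tested. The count rose to 21 on omitting KO eTreg 1 and was 6 for KO cTreg 2, 5 for KO cTreg 3, 3 for KO eTreg 2 or 3 and 2 for KO cTreg 1.

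T cell receptor signalling genes were called higher for 2 of 33 clusters, Nfatc1 (0.67, adjusted P = 0.0320) and Ptpn22 (0.61, adjusted P = 0.0285), and neither was called on omitting KO cTreg 1 or KO eTreg 2 or 3. Of 13 AP-1 clusters 1 was, Atf3 (9.26, 8.60 and 8.14 in cTregs, 9.19, 10.23 and 10.23 in eTregs, adjusted P = 0.0435), which overlapped between the subsets and was not called on omitting KO cTreg 2 or 3 or KO eTreg 2 or 3. Of 20 glycolysis clusters 1 was called, Tpi1 (10.31, 10.53 and 10.47 against 11.08, 11.76 and 11.48, 1.003, adjusted P = 0.00390). None of 20 sterol synthesis clusters passed in limma, where 1 had an unadjusted P below 0.05. Of 27 interferon-stimulated clusters Usp18, a protease that removes ISG15, fell (11.04, 11.68 and 11.51 against 10.95, 10.62 and 10.43, adjusted P = 0.0408), and this call too was lost on omitting KO cTreg 2 or 3 or KO eTreg 2 or 3. None of 36 clusters of the Vps34 complexes and autophagy passed in limma (6 had an unadjusted P below 0.05), with a median of 0.04. Pik3c3, the catalytic subunit Vps34, differed by -0.06, Becn1 by -0.17, Uvrag by 0.07 and Atg14 itself by -0.13. Gabarapl1 was at 9.44, 9.98 and 9.71 in cTregs and 9.48, 11.02 and 10.74 in eTregs (adjusted P = 0.288).

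Genes of monocytes and macrophages were higher on KO eTreg 2 and 3. The mean log2 signal over the 30 clusters of this list was 8.24 to 8.36 on the KO cTreg arrays, 8.55 on KO eTreg 1, 10.32 on KO eTreg 2 and 10.33 on KO eTreg 3, beside 8.10 to 8.25 in control cTregs and 8.80 to 9.06 in control eTregs. Summed on the linear scale, it was 13271 to 14833 in cTregs labelled KO and 16537 to 57018 in eTregs labelled KO. Thus KO eTreg 2 and 3 lay above, and KO eTreg 1 below, the range of the control eTregs. Between the subsets labelled KO, 14 clusters were called higher and 0 lower (median 1.43), and in controls 3 were called higher. Omitting KO eTreg 1 gave 26 calls on this list, and omitting KO eTreg 2 or 3 gave 3, KO cTreg 1 gave 6, KO cTreg 2 gave 8 and KO cTreg 3 gave 4. None of the 30 was at or below background in eTregs, and 1, Tlr4, was so in cTregs (6.20, 6.19 and 6.35 against 7.58, 7.70 and 7.55 in eTregs, adjusted P = 0.00224). The product of Tlr4 is the receptor for bacterial lipopolysaccharide. Slc40a1, the iron exporter, was at 7.81, 8.33 and 7.73 against 8.82, 11.48 and 11.26 (adjusted P = 0.00718), Timd4, a receptor for dying cells, at 7.32, 7.65 and 7.52 against 7.83, 10.02 and 10.24 (adjusted P = 0.0253), and Fcgr3, an Fc receptor, at 8.92, 8.99 and 8.73 against 9.40, 11.17 and 11.59 (adjusted P = 0.0103). Adgre1, an adhesion receptor that marks mouse macrophages, was at 8.63, 8.36 and 8.33 against 8.84, 9.89 and 9.91 (adjusted P = 0.0108). For Slc40a1, Timd4, Fcgr3 and Adgre1, KO eTreg 2 and 3 stood apart from the other 4 arrays, by more than the range of those 4, whereas Tlr4 was at a like level on all 3 eTreg arrays. Spic, the factor of splenic red pulp macrophages, was at 6.61, 6.90 and 6.78 against 6.77, 10.04 and 10.32, with KO eTreg 1 among the cTregs, and did not pass (adjusted P = 0.0764). Hmox1 (1.56), C1qc (1.76) and Fcna (1.51) passed, and Cd14 (0.41) and Cd163 (0.40) did not.

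Dendritic cell genes had 8 of 18 clusters called higher (median 0.64), among them the MHC class II genes H2-Ab1 (9.41, 10.16 and 10.03 in cTregs, 10.57, 12.40 and 12.78 in eTregs, adjusted P = 0.00886) and Cd74 (10.43, 10.95 and 11.11 against 11.20, 12.61 and 12.92, adjusted P = 0.0397) and the integrin Itgax (7.28, 7.08 and 7.11 against 7.53, 9.03 and 9.46, adjusted P = 0.0201). The mean of the list was 9.09 to 9.19 in cTregs labelled KO and 9.41 to 10.39 in eTregs labelled KO, beside 9.01 to 9.09 in control cTregs and 9.36 to 9.50 in control eTregs, and the count was 11 on omitting KO eTreg 1 and 2 to 4 on omitting another KO array. KO eTreg 1 was above every cTreg array in 10 of the 18 clusters. Siglech, a marker of plasmacytoid dendritic cells, was high on KO eTreg 1 too (8.19, 8.14 and 8.23 against 9.78, 10.79 and 10.65, 2.22, adjusted P = 2.53e-05), as was Tcf4, their transcription factor (10.07, 9.88 and 9.87 against 10.65, 10.83 and 11.11, 0.92, adjusted P = 6.34e-04). Flt3 (-0.03) and Zbtb46 (-0.02), defining genes of dendritic cells, did not pass. Of 13 clusters of CD8 T and NK cells 3 were called higher: Klrb1c, the NK1.1 antigen (5.80, 6.52 and 5.15 against 7.21, 9.52 and 8.72), Gzmk (7.34, 7.52 and 7.21 against 8.39, 8.94 and 10.08) and Nkg7 (10.07, 10.89 and 10.06 against 10.90, 11.93 and 11.90). This count was 5 on omitting KO eTreg 1 and 1 on omitting KO cTreg 3 or KO eTreg 2 or 3. Cd22 (1.05) was the single call among 16 clusters of B and plasma cells, where Ms4a1 (-0.15), which encodes the B cell antigen CD20, did not pass. Neutrophil and erythroid or platelet lists had 0 calls of 12 clusters each in limma. There 3 of the neutrophil and 1 of the erythroid or platelet clusters had an unadjusted P below 0.05, beside 3056 of all 22203. In these bulk samples fewer cells of a type and less RNA per cell cannot be told apart, and the part of other cell types in the rises given above was not tested. The lysosome list moved with the macrophage list: 1 of 28 clusters was called higher (Ctsb, 11.58, 12.05 and 11.77 against 12.10, 12.99 and 13.06, adjusted P = 0.0221, which both lists hold), but 10 on omitting KO eTreg 1, 2 for KO cTreg 2 and 0 for any other KO array, and its mean over the cTregs was -0.02 on KO eTreg 1, 0.43 on KO eTreg 2 and 0.56 on KO eTreg 3.

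**Figure D3:**
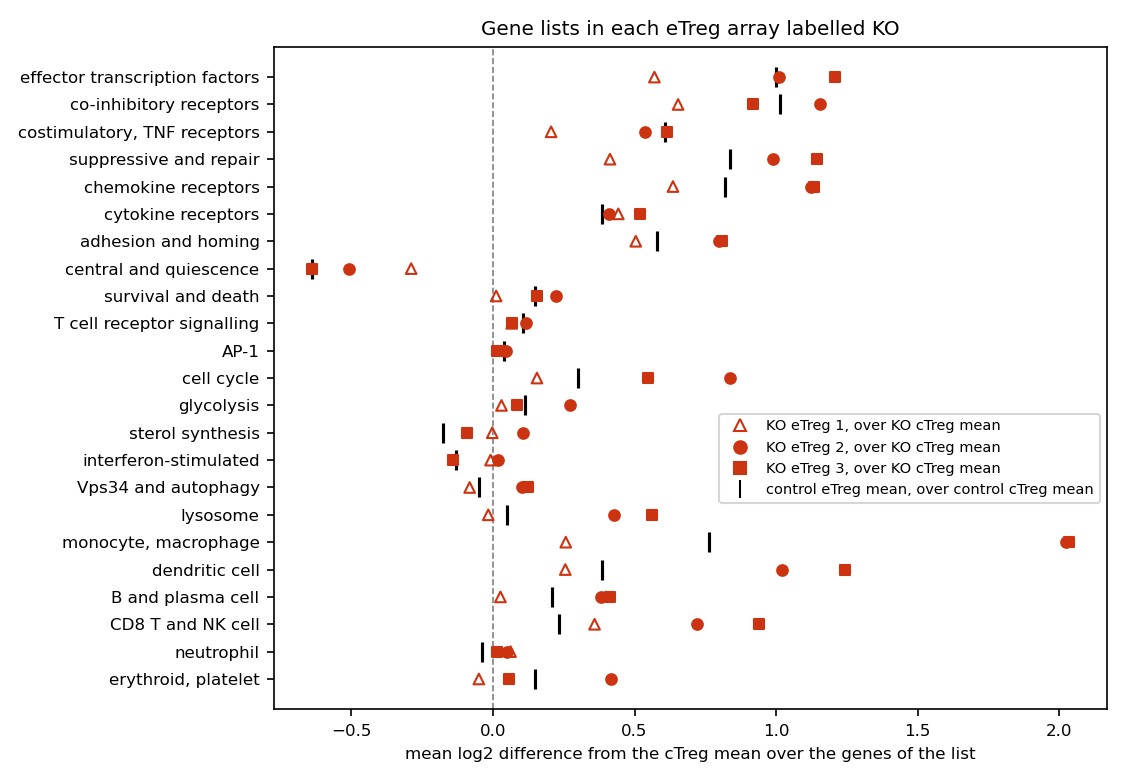
Mean log2 difference from the KO cTreg mean (horizontal axis) over the clusters of each gene list (vertical axis) for KO eTreg 1 (open triangles), 2 (circles) and 3 (squares); black ticks give the control eTreg mean over the control cTreg mean. For the monocyte and macrophage list the 3 arrays lie at 0.26, 2.02 and 2.04 and the controls at 0.76, while for cytokine receptors they lie at 0.44, 0.41 and 0.52 and the controls at 0.39.

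KO eTreg 1 was the lowest of the 3 eTreg arrays in 389 of the 449 rises and the highest in 56 of the 73 falls. How often KO eTreg 1 was the lowest or highest over all clusters was not counted. It was above every cTreg array in 432 of the rises and below every cTreg array in all 73 falls. Over all 22203 clusters it was above every cTreg array in 4992 and below in 5126. The calls were made on these same arrays, which favours such separation. The median rise over the cTreg mean was 0.65 on KO eTreg 1, 1.40 on KO eTreg 2 and 1.39 on KO eTreg 3. For the 14 macrophage clusters called higher these medians were 0.48, 2.41 and 2.57, and for the 36 clusters called higher in the lists of effector factors, co-inhibitory, costimulatory, chemokine and cytokine receptors and suppressive mediators 0.97, 1.48 and 1.76. These medians cover clusters called on the same arrays, so the calls shape them. Over all clusters of the macrophage list, called or not, the mean rise over the cTregs was 0.26, 2.02 and 2.04. For all clusters of effector transcription factors it was 0.57, 1.01 and 1.21. There too the distance between KO eTreg 1 and the other eTreg arrays was larger for macrophage genes than for effector factors, a description without a test.

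The place of each array between the subsets was also read from genes chosen on the 8 control arrays alone. In a fit of those arrays 893 clusters differed between the subsets, 647 higher and 246 lower in eTregs, and each was scaled so that 0 is the mean of the control cTregs and 1 that of the control eTregs. On this scale KO cTreg 1 to 3 averaged 0.055, 0.051 and 0.010 and KO eTreg 1 to 3 averaged 0.46, 1.05 and 1.11. KO eTreg 1 thus lay about midway between the control subsets. Genes higher in control eTregs placed KO eTreg 1 to 3 at 0.48, 1.19 and 1.22 (control eTregs 0.88 to 1.12), and genes lower there at 0.41, 0.70 and 0.84 (control eTregs 0.90 to 1.09). The averages of KO eTreg 2 and 3 near 1 therefore combined higher genes beyond each control eTreg array with lower genes short of each. KO cTreg 1 was at -0.063 by the first and at 0.37 by the second, close to KO eTreg 1, whereas KO cTreg 2 and 3 were at 0.027 and 0.022 by the second. The control arrays set this scale, and so their own places (-0.055 to 0.046 and 0.94 to 1.06) are not independent of it.

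**Figure D4:**
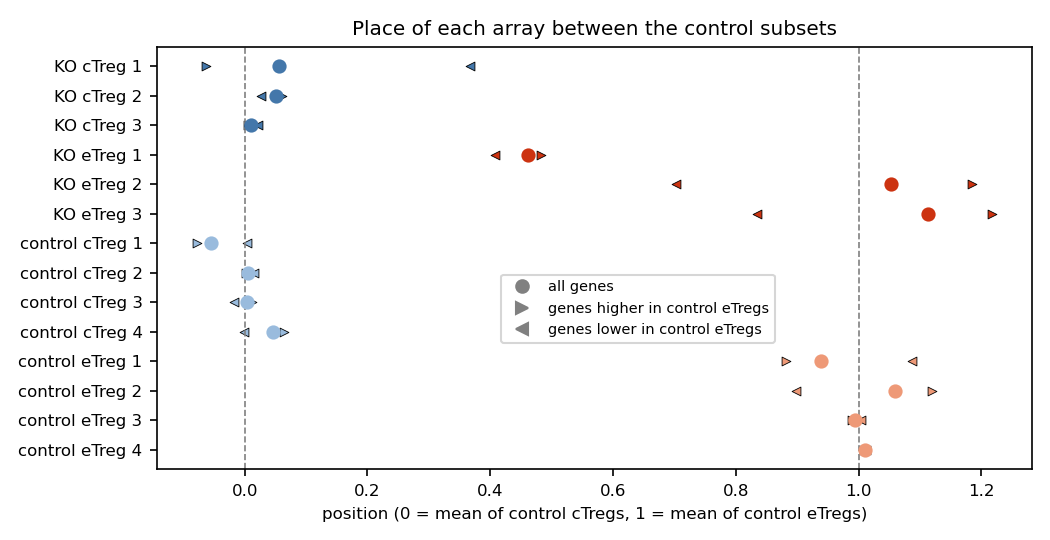
Position of each of the 14 arrays (vertical axis) between the mean of control cTregs (0) and that of control eTregs (1) on the horizontal axis, over 893 clusters chosen on control arrays (circles), or over the 647 higher (right-pointing) or 246 lower (left-pointing) ones. KO eTreg 1 lies at 0.46 and KO eTreg 2 and 3 at 1.05 and 1.11.

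The same subset difference was then set beside that of the controls, which share no array with it. Both differences came from 1 fit with a shared estimate of the spread, so their calls are not independent. In controls 680 clusters were called (3.06%). Of the 449 clusters called higher in eTregs labelled KO, 435 were also higher and 242 were also called in controls (476 called higher, 2.14%), and of the 73 called lower 68 were lower and 49 called (204 called lower, 0.919%). No cluster was called in opposite directions. The median change of the 449 was 1.16 in arrays labelled KO and 0.82 in controls, and that of the 73 was -0.72 and -0.64. Selection on the KO arrays favours larger values there, so these medians are a description. Across the 449 and the 73 clusters the changes correlated with r = 0.68 and 0.66, where genes are not independent. Ccr2 (3.55 and 3.68), Ccr4 (3.10 and 3.04), Nav2 (2.93 and 2.95) and S100a4 (2.60 and 2.71) changed by similar amounts in KO and control arrays. Rises named by rule that were not called in controls were smaller there. These were Mrc1 (3.38 and 1.56), Lima1 (3.23 and 0.87), Ear12 (3.03 and 1.55), Ccl8 (2.78 and 1.13), C1qa (2.68 and 1.66) and Csf1r (2.57 and 1.30). The test of the difference between both subset effects (interaction) passed for 0 clusters, with a smallest adjusted P of 0.107, and 6.12% of all clusters had an unadjusted P below 0.05. Of the 522 called clusters 140 had one, but calls on the KO arrays favour such a difference. Among the called genes given above, the lowest P values were those of Siglech (difference between the effects of 1.72, adjusted P = 0.113), Sprr2j-ps (-1.72, adjusted P = 0.254), Tcf4 (0.73, adjusted P = 0.527), Tlr4 (1.20, adjusted P = 0.545) and Gzmk (1.26, adjusted P = 0.736), in the limma fit over all arrays. Except for Sprr2j-ps, these had the larger rise in arrays labelled KO. When KO eTreg 1 was omitted, 207 clusters passed.

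**Figure D5:**
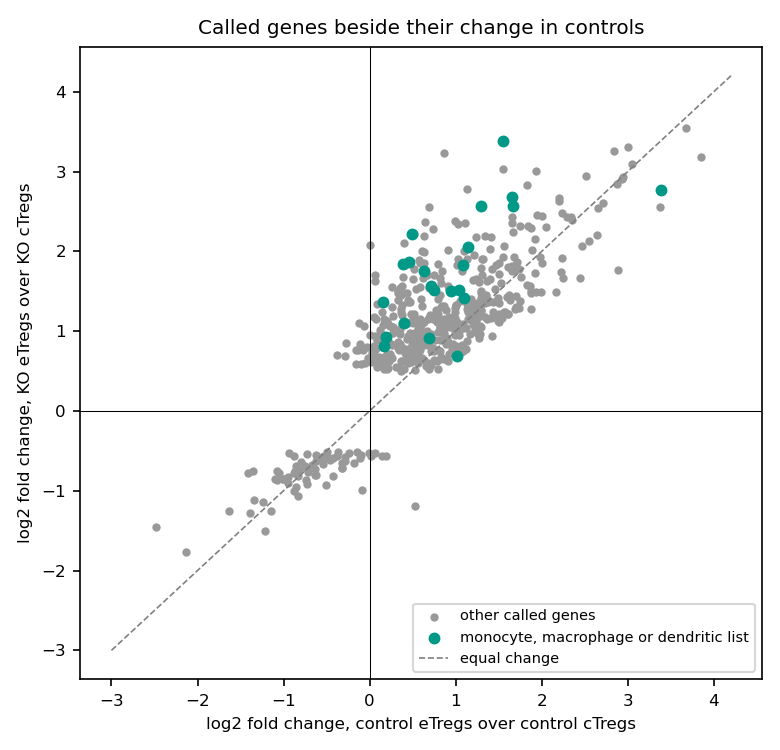
Log2 fold change of eTregs over cTregs in control arrays (horizontal axis) and in arrays labelled KO (vertical axis) for the 522 clusters called in the latter, with the dashed line at equal change. Clusters of the monocyte and macrophage or dendritic lists (green, 22) lie above the line except Cybb (3.39 in controls, 2.77 in KO) and Runx2 (1.02 and 0.69).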

How the data were processed

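RNA was measured on Clariom S mouse arrays, 1 per sample. The authors extracted total RNA with the RNeasy Micro kit, labelled it with the WT Plus kit and processed the scans by RMA (Affymetrix Expression Console 1.1), which gave the log2 signals per transcript cluster that they deposited. Arrays have no read depth, so their number limits the precision.

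Of 28846 entries, 22203 with a gene symbol that are no control probe sets were kept, for 21902 symbols. Group means of all 14 arrays were fitted in 1 limma 3.58.1 model (R 4.3.3, lmFit and eBayes, 10 residual degrees of freedom), and P values were adjusted by Benjamini-Hochberg over all clusters. A cluster was called at an absolute log2 fold change of at least 0.5 with an adjusted P below 0.05. SE is that of the fitted difference. Tested on simulated data of the KO comparison with 22203 clusters, this fit recovered 92% of 100 clusters changed by 1 on the log2 scale and 100% of 100 changed by 2, and called 8 unchanged clusters. The simulated noise was independent between clusters and arrays, with equal spread on each array and no array between the subsets. It therefore checks the code and does not measure the errors of the calls above. Named genes were the given markers, members of 24 lists and, among called clusters without overlap, the 15 largest rises and 10 largest falls with both means above background (the highest array median of background probes) and the 5 largest rises from background; no fall reached background. Members and lists were chosen with earlier results of these data known. Promoters came from RefSeq tables (Python 3.11.15). Alternatives were other scalings, filters, fits, a replicate block and leaving out each array. Values of some genes in the lists are not reported here.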

Additional observations from a re-analysis of the deposited data

How the results depend on the processing

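The number of transcript clusters called between eTregs and cTregs labelled KO was 522 (449 higher, 73 lower). It was 133 (120 and 13) with only the 6 KO arrays, 303 (237 higher) above the 60th percentile of mean signal, where 529 passed the unadjusted threshold (412 and 117), and 961 (788 and 173) with array weights, where 407 were lower at the unadjusted threshold. The filter tests fewer clusters; the other causes were not tested. Leaving out 1 array gave 219 to 1236 calls, 202 to 994 higher and 17 to 242 lower, and 1158 to 1986 at the unadjusted threshold (255 to 533 lower). The replicate numbers were not taken as pairs, since no source says that they mark a mouse and not every same-numbered pair had r over 0.1: deviations correlated with r = 0.30, 0.29 and 0.044 in KO and 0.222, 0.146, 0.102 and 0.0707 in control arrays. All 7 were positive, and 6 of 7 eTreg arrays correlated best with their own number (KO eTreg 3 did with KO cTreg 2, 0.117). Whether the numbers mark a mouse or another shared condition was not tested. The study names 3 KO and 4 control chimeras behind these arrays, so arrays of both subsets share mice. The main fit treats them as independent. The number as a fixed replicate block gave 647 calls (550 and 97, of which 456 were among the 522), and as a random block 859 (718 and 141) with 2 calls of the interaction. Otherwise the interaction had 0 calls except 1 with array medians subtracted, 3 with array weights, 1 without control eTreg 3 and 207 without KO eTreg 1, so that leaving out 1 array gave 0 to 207. The 30 genes named by rule and Cd44 kept direction in every alternative; 8 lost their call with only the KO arrays, 4 with a trended and robust prior and 5 to 7 without 1 KO array other than KO eTreg 1. The difference of Foxp3, not called, was -0.0167 with 75th percentiles subtracted, -0.0784 with array weights and -0.0926 to 0.106 when 1 array was left out. With 75th percentiles subtracted KO cTreg 1 lay at 0.101 between the control subsets. The 3 arrays of each KO group limit these counts.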
